A study of Mus musculus with 6 samples.

Results

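The genes described here encode the chains of integrins, laminins and collagens, the matrix metalloproteinases (MMPs), their inhibitors of the Timp family, and the hyaluronan receptor CD44. They were taken by symbol (stems Itga or Itgb, Lama, Lamb or Lamc, and Col followed by a number, Mmp with a number, Timp1 to Timp4, and Cd44, with Mmp7 left out), which gave 107 of the 24956 genes in the table. Of these, 4 match by name only: Itgb1bp1, Itgb1bp2 and Itgb3bp encode proteins named for binding an integrin tail, and Col4a3bp encodes a ceramide transfer protein. The other 103 are 12 integrin α and 9 integrin β genes, 11 laminin, 44 collagen, 22 MMP and 4 Timp genes, and Cd44. Integrin α chains with a letter in place of a number, such as Itgav, are not among them. RNA was sequenced from intestinal organoids of mice with the Apc Min genotype, a truncating mutation of the tumour suppressor gene Apc, as 3 libraries treated with DM-aKG, a cell-permeable ester of α-ketoglutarate, and 3 libraries given the control treatment. All 6 carry Apc Min and grew in organoid medium. Replicates are described as biological with no word on mice or cultures of origin, and dose, time and the control substance were not stated, so p-values measure the spread between these samples only.

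Integrins are receptors made of an α and a β chain that hold a cell to the matrix beneath it and link that matrix to the cytoskeleton. In the gut epithelium they bind the basement membrane, a thin sheet of laminin trimers (an α, a β and a γ chain each), type IV collagen, nidogens and perlecan. Hemidesmosomes, the firm anchoring points of an epithelial cell, join laminin outside through the integrin pair of Itga6 and Itgb4 to the linker plectin and the keratins inside. Much of the intestinal basement membrane and nearly all fibrillar collagen comes from mesenchymal cells, which a culture of epithelium alone lacks. MMPs cut matrix proteins and shed surface proteins, and Timps block them.

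Values are RPKM, read counts scaled by gene length and library size, so levels can be compared between genes. The libraries held an estimated 32.7 to 34.3 M reads each, and values are rounded to 2 decimals. The libraries carried the RNA of epithelium: the 10 epithelial markers summed to 4330 to 5200 RPKM in the DM-aKG libraries and 3510 to 3560 RPKM in the controls. Of the 10, 5 were called higher and 3 lower; the keratin genes Krt8, Krt18 and Krt19 rose (log2 fold changes of 0.85 to 0.91), while Epcam averaged 334 RPKM in DM-aKG and 421 RPKM in control, and Cdx1 and Cdx2 were lower too. Of 14 fibroblast and muscle markers, 3 (Thy1, Dcn and Lum) were at 0 throughout and 13 lay below the test's minimum. Their sum was 5.10 to 6.12 RPKM in DM-aKG and 3.57 to 3.66 RPKM in control, mostly from Vim. Vim, the only tested marker of this list, was called higher (log2 fold change 0.53 ± 0.09, limma, adjusted p = 0.00224). Pdgfrb was at 0.24 to 0.70 RPKM in DM-aKG and 0.08 to 0.15 RPKM in control, and no marker of the list was lower without overlap. Among 7 endothelial markers, 4 (Cdh5, Kdr, Emcn and Cldn5) were at 0 in all 6 libraries, and the sum was 0.40 to 0.52 RPKM in DM-aKG and 0.20 to 0.29 RPKM in control, with Pecam1 and Tek higher in DM-aKG without overlap. The 4 glial markers summed to 0.90 to 1.09 RPKM in DM-aKG and 0.49 to 0.59 RPKM in control, mostly from S100b, and the defining marker Sox10 did not exceed 0.01 RPKM. The immune marker Ptprc did not exceed 0.01 RPKM. Itgam was at 0.92 to 1.23 RPKM in DM-aKG and 0.52 to 0.62 RPKM in control. Csf1r was at 0.06 to 0.11 RPKM in DM-aKG and 0.01 to 0.04 RPKM in control. Both were higher without overlap, and no immune marker was lower without overlap. Cd68 averaged 1.69 RPKM in DM-aKG and 0.837 RPKM in control and did not pass (limma, adjusted p = 0.0523). The 9 immune markers summed to 2.33 to 3.44 RPKM in DM-aKG and 1.43 to 1.70 RPKM in control. Paneth cell markers set a library apart: 7 of them summed to 1690 RPKM in DM-aKG replicate 1, against 744 and 717 RPKM in DM-aKG replicates 2 and 3, and to 2230, 2920 and 2320 RPKM in the controls. In bulk RNA, fewer cells of a type and less RNA per cell cannot be told apart.

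DM-aKG libraries held more RNA of most of the integrin and laminin genes that the organoids expressed. Genes were tested with limma on log2(RPKM + 0.5) if they averaged at least 1 RPKM over the 6 libraries. That left 23 of the 107 genes, and each of the 23 reached 1 RPKM as a mean in both groups. At an adjusted p under 0.05, 15 of the 23 were higher in DM-aKG (65.2%) and 2 lower (8.70%), and 6 did not pass. Over all 10852 genes tested, 30.9% were higher and 24.7% lower, together 55.6%. The median log2 fold change was 0.37 over the 23 and 0.02 over all genes tested. A rise of at least 1.5-fold was called for 8 of the 23 (34.8%) and for 7.04% of all genes tested. The 3 DM-aKG values lay beyond the 3 control values in 18 of the 23 (78.3%), the 17 called genes and Lamb1, and in 64.2% of all genes tested (35.3% with DM-aKG higher). Centring each library on its median gave 2790 higher and 3340 lower genes over the whole table, in place of 3354 and 2679, while the count of higher genes among the 23 stayed at 15 and that of lower genes became 3.

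**Figure D1:**
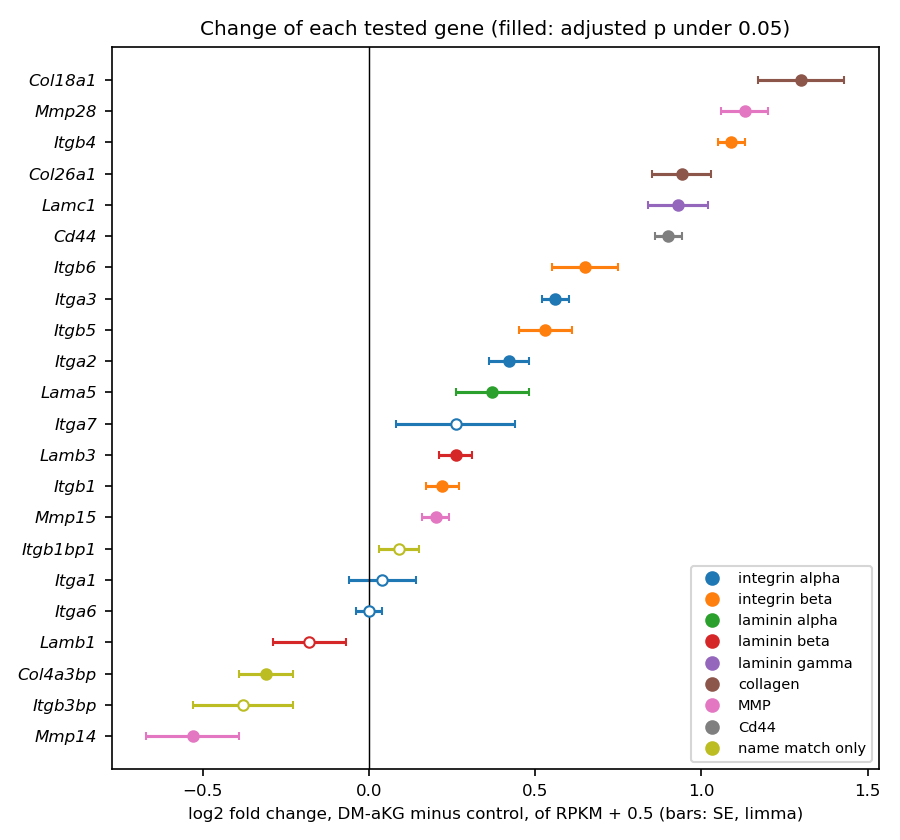
Log2 fold change (DM-aKG minus control, on log2(RPKM + 0.5), with bars for the limma SE) of 22 tested genes, coloured by family; filled points passed an adjusted p under 0.05 and open ones did not. Col18a1 is at the top with 1.30, 14 filled points lie right of 0, and Col4a3bp and Mmp14 are the 2 filled points left of it.

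The 4 tested integrin β chains (100%) rose, each beyond the spread of the libraries. Of the 5 tested α chains of the set, 2 rose (40%) and 3 did not pass. Over all genes tested, 30.9% were higher, and Itgav, an α chain outside the set, rose too. Itgb1, the chain shared by most matrix-binding integrins, was at 73.8, 82.4 and 81.2 RPKM in the DM-aKG libraries and at 67.8, 69.4 and 65.6 RPKM in the controls. The groups did not overlap, and the rise was small (log2 fold change 0.22 ± 0.05, SE; limma, adjusted p = 0.00772). Itgb4, the hemidesmosome chain with a long cytoplasmic tail, was at 47.6, 48.2 and 50.9 RPKM in DM-aKG against 23.0, 22.4 and 22.5 RPKM in control. The groups were far apart, with a DM-aKG mean 2.16 times the control mean (log2 fold change 1.09 ± 0.04; limma, adjusted p = 2.41e-06). Itgb4 shares 537 exonic bases with B230344G16Rik on the opposite strand, which stayed at or under 0.63 RPKM. Itgb5 and Itgb6, whose products pair with the αv chain and bind RGD-containing ligands, were less abundant. Itgb5 was at 5.97, 5.16 and 5.65 RPKM in DM-aKG and 3.88, 3.40 and 3.91 RPKM in control, and rose by 0.53 ± 0.08 in log2 (limma, adjusted p = 8.97e-04). Itgb6, known for activating latent TGF-β in epithelium, was at 5.53, 7.22 and 7 RPKM in DM-aKG against 3.99, 4.16 and 3.86 RPKM in control. DM-aKG replicate 1 was the lowest of its group but above all controls, and the rise was 0.65 ± 0.10 (limma, adjusted p = 0.00102). Itgav, their α partner and outside the set by its name, averaged 6.79 ± 0.281 RPKM in DM-aKG and 4.41 ± 0.282 RPKM in control (SD, n = 3 each), a log2 fold change of 0.57 ± 0.06 (limma, adjusted p = 2.52e-04).

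Among the α chains, Itga3, a laminin receptor chain, was at 25.60, 25.03 and 25.54 RPKM in DM-aKG and 17.27, 17.02 and 17 RPKM in control. The spread within each group was under 1 RPKM and the groups lay far apart (log2 fold change 0.56 ± 0.04; limma, adjusted p = 3.06e-05). Itga2, a collagen and laminin receptor chain, was at 9.88, 9.40 and 8.77 RPKM in DM-aKG against 7.12, 7.08 and 6.42 RPKM in control, a log2 fold change of 0.42 ± 0.06 (limma, adjusted p = 0.00109). Itga6, the abundant laminin receptor chain that pairs with Itgb4 or Itgb1, did not pass. It was at 54.0, 56.7 and 55.5 RPKM in DM-aKG and 55.8, 56.8 and 53.9 RPKM in control, with groups that overlapped throughout and a log2 fold change of -0.00 ± 0.04 (limma, adjusted p = 0.950). Itga1, a collagen receptor chain, averaged 6.37 ± 1.05 RPKM in DM-aKG and 6.14 ± 0.309 RPKM in control and did not pass (limma, adjusted p = 0.755). Itga7, a laminin receptor chain best known from muscle, was at 2.25, 3.73 and 4.18 RPKM in DM-aKG and 2.69, 2.81 and 2.52 RPKM in control. DM-aKG replicate 1 lay below the controls and the other DM-aKG libraries above them, and the gene did not pass with all libraries (limma, adjusted p = 0.258); without DM-aKG replicate 1 it was higher (log2 fold change 0.49; limma, adjusted p = 9.90e-04).

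Because RPKM is scaled by length, chains that pair can be set against each other within a library. The level of Itgb4 was 0.881, 0.849 and 0.918 of that of Itga6 in the DM-aKG libraries and 0.411, 0.394 and 0.417 in the controls. The ratio separated the groups without overlap, by 1.11 on the log2 scale (two-sided exact permutation test, p = 0.1, the smallest that 3 against 3 allows; 4 ratios were tested, 3 of which are given, adjusted p = 0.1). For Itgb1 over Itga6 the ratio was 1.37, 1.45 and 1.46 in DM-aKG and 1.21, 1.22 and 1.22 in control, a log2 difference of 0.23 (two-sided exact permutation test, p = 0.1). Because Itga6 stayed level, both ratios largely repeat the changes of Itgb4 and Itgb1 given above, and their tests add no separate result. The α chains that can pair with Itgb1 (Itga1, Itga2, Itga3, Itga6, Itga7 and Itgav) summed to 106 to 108 RPKM in DM-aKG and 89.8 to 94.3 RPKM in control. In order of level, Itgb1 and Itga6 led in either group, followed by Itgb4 and Itga3.

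**Figure D2:**
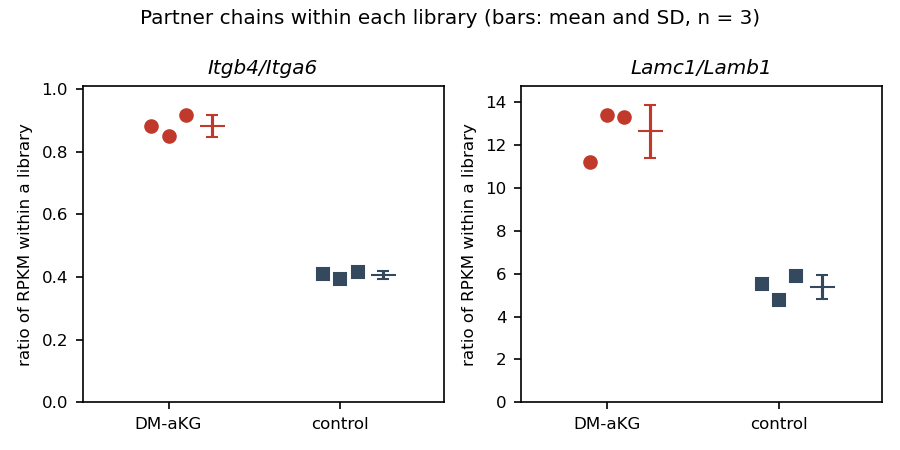
Ratio of RPKM of Itgb4 to Itga6 (left) and of Lamc1 to Lamb1 (right) in each library, with the group mean and SD (n = 3) beside the points. All DM-aKG points lie above all control points: 0.849 to 0.918 against 0.394 to 0.417 on the left, and 11.2 to 13.4 against 4.75 to 5.88 on the right. Either separation largely repeats the changes of the single genes.

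The other 12 integrin genes averaged under 1 RPKM and reached at most 0.34 RPKM in any library. They include the leukocyte chains Itgb2, Itga4 and Itgb7, the platelet chain Itga2b and the fibronectin receptor chain Itga5, and Itga8 was at 0 throughout. The 3 DM-aKG values of Itga10 and of Itga2b lay slightly above their control values, at 0.29 to 0.34 RPKM against 0.17 to 0.24 RPKM for Itga10 and 0.25 to 0.27 RPKM against 0.15 to 0.20 RPKM for Itga2b. Itga10 shares 1739 of its 5186 exonic bases with Gm42957 on the same strand, which has no values here, so the level of Itga10 is uncertain.

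Laminin genes differed in direction: Lamc1, Lamb3 and Lama5 rose, Lamb1 did not pass, and the less abundant Lamb2 was lower. Lamc1, the γ chain of most laminins, was at 11.3, 14.4 and 14.2 RPKM in DM-aKG against 6.77, 6.98 and 6.41 RPKM in control. The groups were clear of each other, with DM-aKG replicate 1 the lowest of its group (log2 fold change 0.93 ± 0.09; limma, adjusted p = 1.66e-04), and without that library the log2 fold change came to 1.04. On GRCm38, the assembly that mm10 names, Lamc1 spans 153218922 to 153332786 on the minus strand of chromosome 1. Lamb3, the β chain of the hemidesmosomal laminin, was at 40.3, 43.8 and 44.1 RPKM in DM-aKG against 34.9, 37.2 and 34.8 RPKM in control, the most abundant laminin chain in each group. The groups did not overlap and the rise was small (log2 fold change 0.26 ± 0.05; limma, adjusted p = 0.00373). Lama3, the α chain of the same laminin, was at 0.28, 0.35 and 0.40 RPKM in DM-aKG and 0.23, 0.10 and 0.16 RPKM in control. It lay below the minimum of 1 RPKM and was not tested in the main comparison. Its DM-aKG values were all above the control values. All its values were far below those of Lamb3, and the annotation used for counting was not stated, so the level of Lama3 is uncertain.

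Lama5, the main α chain of epithelial basement membranes, was at 1.36, 1.45 and 1.46 RPKM in DM-aKG and 0.91, 1.21 and 0.88 RPKM in control. It was called higher (log2 fold change 0.37 ± 0.11; limma, adjusted p = 0.0231), but missed the threshold when control replicate 1 or 3 was left out (limma, adjusted p = 0.0763 and 0.0855), or DM-aKG replicate 2 or 3 (limma, adjusted p = 0.0671 and 0.0697). Lamb1, the common β chain, was at 1.01, 1.08 and 1.07 RPKM in DM-aKG and 1.23, 1.47 and 1.09 RPKM in control. Every DM-aKG value was below every control value, by as little as 0.01 RPKM, and the gene did not pass (log2 fold change -0.18 ± 0.11; limma, adjusted p = 0.189). The ratio of Lamc1 to Lamb1 was 11.2, 13.4 and 13.3 in DM-aKG and 5.50, 4.75 and 5.88 in control (two-sided exact permutation test, p = 0.1). Since Lamc1 was higher and Lamb1 lower without overlap, this ratio had to separate the groups, and its test adds no separate result. Lamb2, the β chain that can take the place of Lamb1, lay below both. It was at 0.16, 0.09 and 0.05 RPKM in DM-aKG and 0.70, 0.82 and 0.71 RPKM in control, so that the DM-aKG mean was 0.135 of the control mean. Lamb2 averaged under 1 RPKM and entered only the test without a minimum (log2 fold change -1.05 ± 0.08; limma, adjusted p = 4.28e-04), where 36.1% of all genes and 15.9% of genes averaging under 1 RPKM were called. Lama1, Lama2, Lama4 and Lamc3 did not exceed 0.01 RPKM in any library.

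**Figure D3:**
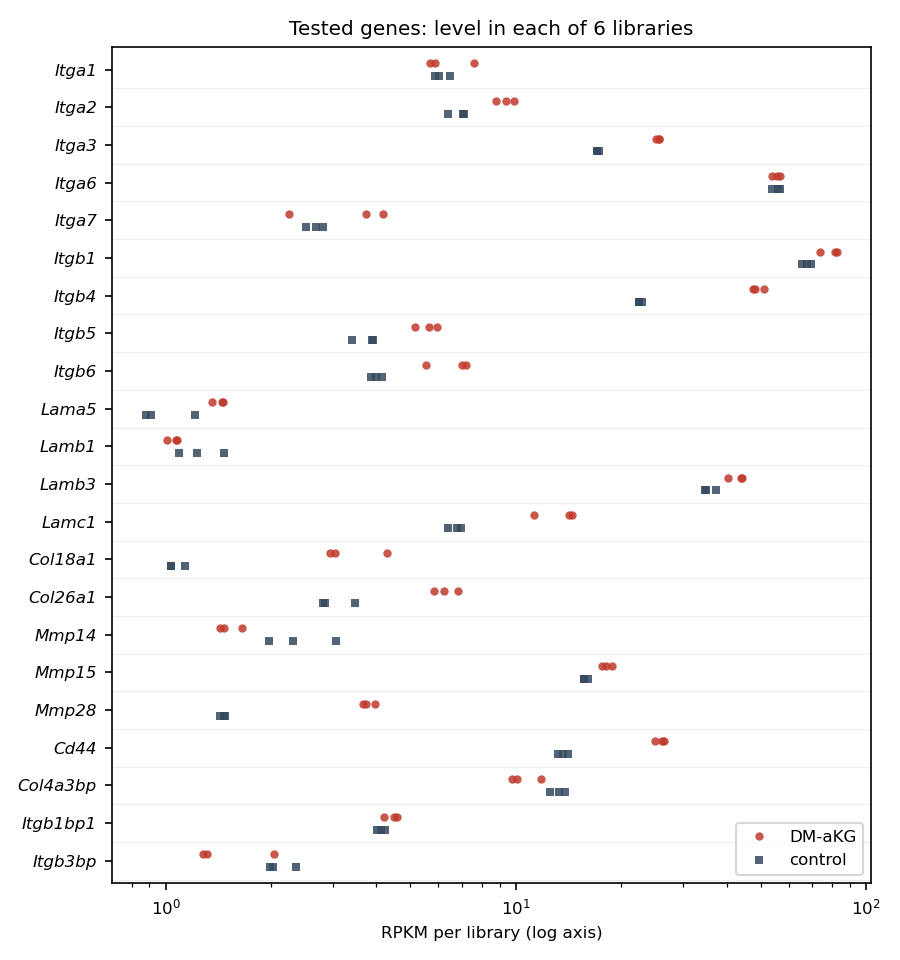
RPKM of 22 tested genes in each of the 6 libraries (log axis), with DM-aKG as circles above and control as squares below in each row. The groups separate widely for Itgb4, Cd44, Col18a1 and Mmp28, and lie on top of each other for Itga6 at 53.9 to 56.8 RPKM.

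Collagen RNA was scarce in these organoids. Only 2 of the 44 collagen genes could be tested, Col18a1 and Col26a1. Both rose, where 30.9% of all genes tested were higher. The 44 collagen genes summed to 15.1, 13.2 and 14.3 RPKM in DM-aKG and 5.64, 6.20 and 5.58 RPKM in control. Of the 44, 9 were at 0 in all libraries, and the fibrillar collagens Col1a1, Col1a2, Col3a1, Col5a1 and Col5a2 together reached at most 0.03 RPKM. The sum of fibroblast and muscle markers was also higher in DM-aKG, as given above, and its part in the collagen values was not tested. Col18a1, the basement membrane collagen whose C-terminal fragment is endostatin, was at 4.29, 3.05 and 2.94 RPKM in DM-aKG against 1.04, 1.14 and 1.04 RPKM in control. DM-aKG replicate 1 was the highest of its group, the reverse of Lamc1, and the gene rose by 1.30 ± 0.13 in log2 (limma, adjusted p = 1.71e-04) and by 1.15 without that library (limma, adjusted p = 2.05e-05). Col26a1, a little studied short-chain collagen, was at 5.84, 6.22 and 6.85 RPKM in DM-aKG and 2.82, 3.47 and 2.86 RPKM in control (log2 fold change 0.94 ± 0.09; limma, adjusted p = 1.39e-04). The groups did not overlap for either gene.

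Col4a1 and Col4a2, the chains of the ubiquitous type IV collagen network, lay below the minimum but reached 1 RPKM in DM-aKG libraries. Col4a1 was at 1.38, 0.73 and 0.91 RPKM in DM-aKG and 0.26, 0.19 and 0.26 RPKM in control. Col4a2 was at 1.78, 1.06 and 1.02 RPKM in DM-aKG and 0.23, 0.20 and 0.18 RPKM in control. Both were highest in DM-aKG replicate 1 and clear of the controls, at 4.25 and 6.33 times the control mean. The genes lie head to head on chromosome 8, Col4a1 at 11198423 to 11312826 (minus strand) and Col4a2 at 11312805 to 11449287 (plus strand), and their exons share 22 bases, so a few reads could have been counted for either. In the test without a minimum Col4a1 had a log2 fold change of 1.01 ± 0.16 (limma, adjusted p = 0.00420) and Col4a2 one of 1.32 ± 0.16 (limma, adjusted p = 0.00182). Col4a3 to Col4a6 did not exceed 0.09 RPKM. Col20a1 was at 0.88, 1.27 and 1.68 RPKM in DM-aKG and 0.56, 0.40 and 0.44 RPKM in control, and the hemidesmosomal collagen Col17a1 was at 0.04 to 0.10 RPKM in DM-aKG and 0.07 to 0.08 RPKM in control. Without Col18a1, Col26a1, Col20a1, Col4a1 and Col4a2, the remaining 39 collagens summed to 0.92 to 0.93 RPKM in DM-aKG and 0.73 to 0.80 RPKM in control.

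**Figure D4:**
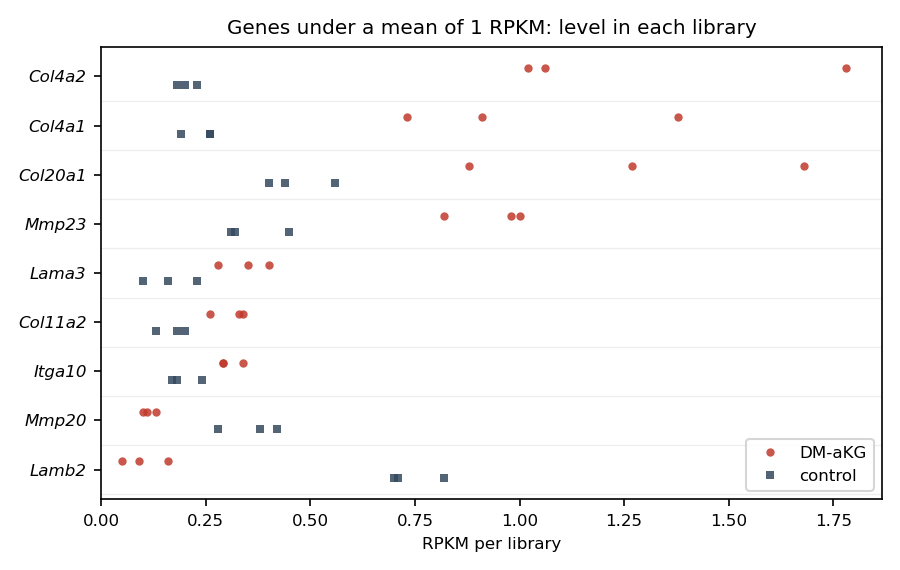
RPKM in each library (linear axis from 0) of the genes of the set that averaged under 1 RPKM, were called in the test without a minimum and reached 0.3 RPKM in a library; DM-aKG as circles above, control as squares below. Col4a2 and Col4a1 stand at 0.73 to 1.78 RPKM in DM-aKG against 0.18 to 0.26 RPKM in control, and Lamb2 and Mmp20 run the other way.

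Of the proteases, 3 of the 22 MMP genes passed the minimum. Mmp15, a membrane-anchored MMP, was the most abundant, at 17.6, 18.1 and 18.8 RPKM in DM-aKG and 15.7, 15.6 and 16.1 RPKM in control, a small rise (log2 fold change 0.20 ± 0.04; limma, adjusted p = 0.00595). Mmp28, a secreted MMP of epithelia also called epilysin, was at 3.73, 3.66 and 3.96 RPKM in DM-aKG against 1.48, 1.47 and 1.43 RPKM in control. The groups were tight and far apart (log2 fold change 1.13 ± 0.07; limma, adjusted p = 1.65e-05). Mmp28 shares 466 exonic bases with 1700020L24Rik on the opposite strand, which was at 2.79, 3.48 and 2.33 RPKM in DM-aKG and 1.02, 1 and 1.25 RPKM in control. Since strand is not stated, reads of these overlapping genes cannot be told apart and the level of Mmp28 is uncertain. Mmp14, the membrane-anchored collagenase that activates pro-MMP2, fell: it was at 1.65, 1.47 and 1.43 RPKM in DM-aKG and 1.97, 3.07 and 2.31 RPKM in control. Control replicate 2 was the highest, the groups did not overlap, and the log2 fold change was -0.53 ± 0.14 (limma, adjusted p = 0.0116).

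Most other MMP genes were at or near 0. Of the 19 below the minimum, 7 were at 0 in all 6 libraries and 14 stayed under 0.1 RPKM, the gelatinase genes Mmp2 and Mmp9 among them. The 9 MMP genes clustered within 0.402 Mb of chromosome 9 summed to 0.10 to 0.13 RPKM in DM-aKG and 0.30 to 0.42 RPKM in control, nearly all from Mmp20, the enamel protease, at 0.11, 0.10 and 0.13 RPKM in DM-aKG and 0.38, 0.42 and 0.28 RPKM in control. Mmp23 stood at 0.82, 0.98 and 1 RPKM in DM-aKG and 0.32, 0.31 and 0.45 RPKM in control. Mmp11, the MMP known from tumour stroma, was at 0.05, 0.04 and 0.05 RPKM in DM-aKG and 0.20, 0.25 and 0.21 RPKM in control, and it shares 155 exonic bases with the abundant gene Chchd10 on the other strand. In the test without a minimum, Mmp23 was called higher (log2 fold change 0.74 ± 0.09; limma, adjusted p = 0.00194), and Mmp11 and Mmp20 lower (limma, adjusted p = 6.55e-04 and 0.00284). The Timp genes were low throughout. Timp2 was at 0.23, 0.24 and 0.30 RPKM in DM-aKG and 0.34, 0.57 and 0.39 RPKM in control, without overlap but not called without a minimum (limma, adjusted p = 0.0591), Timp3 at 0.17 to 0.20 RPKM in DM-aKG and 0.13 to 0.19 RPKM in control, and Timp1 and Timp4 at no more than 0.10 RPKM.

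Over the whole set, 84 genes lay below the minimum. Of these, 18 were at 0 in every library and 60 stayed under 0.1 RPKM. Among the 66 with any reads, the groups did not overlap for 19 (28.8%), 12 higher and 7 lower in DM-aKG, where 21.9% of all such low genes did not overlap. Without a minimum, 15 of the 66 were called (22.7%), 10 higher and 5 lower, where 15.9% of all such low genes were called. At values such as 0.05 RPKM the rounding to 0.01 RPKM is itself a large part of a difference.

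CD44 binds hyaluronan and, in the intestine, is a surface marker of the crypt. Cd44 was at 25.01, 26.42 and 26.06 RPKM in DM-aKG and 14.0, 13.6 and 13.2 RPKM in control. The groups lay far apart, and the log2 fold change was 0.90 ± 0.04 (limma, adjusted p = 6.91e-06). The values do not separate the isoforms of Cd44. Of the 4 genes that match by name only, Col4a3bp fell by 0.31 ± 0.08 in log2 (limma, adjusted p = 0.00924), at 11.8, 9.75 and 10.1 RPKM in DM-aKG and 13.8, 12.5 and 13.2 RPKM in control. Itgb1bp1 and Itgb3bp did not pass (limma, adjusted p = 0.203 and 0.0572). Itgb3bp, at 1.28 to 2.04 RPKM in DM-aKG and 1.99 to 2.36 RPKM in control, shares 398 exonic bases with Pgm1 on the opposite strand, which was at 61.4 to 62.4 RPKM in DM-aKG and 41.6 to 48.6 RPKM in control, so its level is uncertain. Itgb1bp2 did not exceed 0.2 RPKM.

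The windows before the start of genes of the set, as RefSeq gives them on GRCm38.p6, were read for 3 motifs on either strand: TGANTCA, bound by AP-1, GGAATG, bound by TEAD factors, and CTTTGAT, bound by TCF/LEF factors. The table of promoters held 80 of the 107 genes and 11 of the 15 that rose. In the 250 bases before a start, TGANTCA was in 10% of the 80 genes and 7.82% of all 27025 genes in that table, GGAATG in 10% and 14.4%, and CTTTGAT in 1.25% and 3.72%. Of the 11 that rose, 0 had TGANTCA, 3 had GGAATG (Col18a1, Itgb1 and Lamb3) and 0 had CTTTGAT. For Col18a1 and Lamb3 the matching windows held 241 and 171 annotated exonic bases among their 250. Each of these genes also had a window at another start, without a match. By the exact 95% binomial interval, 0 of 11 allows a share of up to 28.5%, and 3 of 11 one of 6.02% to 61.0%. With the 50 bases after the start added, 1 of the 11 (9.09%) had TGANTCA, against 8.97% of all genes in the table. A match describes letters only. Windows of 250 bases that hold no annotated exon are shown for the receptor genes Cd44 and Itgb1, which rose, and for Mmp14, which fell, with capitals for GGAATG, found in that of Itgb1 7 bases before the start.
Cd44, chr2:102901666-102901915, minus strand: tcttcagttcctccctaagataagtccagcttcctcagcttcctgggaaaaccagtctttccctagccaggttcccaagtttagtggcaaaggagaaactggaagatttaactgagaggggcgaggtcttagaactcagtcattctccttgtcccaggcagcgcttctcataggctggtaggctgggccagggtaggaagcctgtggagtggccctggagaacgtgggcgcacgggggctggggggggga
Itgb1, chr8:128685404-128685653, plus strand: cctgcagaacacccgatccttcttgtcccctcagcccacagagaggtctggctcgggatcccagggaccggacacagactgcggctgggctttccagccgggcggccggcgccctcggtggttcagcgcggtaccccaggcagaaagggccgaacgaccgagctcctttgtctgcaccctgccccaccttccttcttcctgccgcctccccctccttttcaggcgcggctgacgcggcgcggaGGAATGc
Mmp14, chr14:54431348-54431597, plus strand: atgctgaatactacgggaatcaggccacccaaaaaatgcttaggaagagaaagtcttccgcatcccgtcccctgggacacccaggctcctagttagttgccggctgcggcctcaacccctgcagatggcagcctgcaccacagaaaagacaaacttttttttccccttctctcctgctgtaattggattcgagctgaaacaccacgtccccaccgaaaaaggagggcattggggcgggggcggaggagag

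The proteins that work beside these genes were followed in 5 lists, to be read against the 30.9% higher and 24.7% lower among all genes tested. Among the focal adhesion and hemidesmosome genes, 13 of 24 tested genes rose (54.2%), 6 fell (25%) and 5 missed the threshold, with a median log2 fold change of 0.17. Plec, whose product plectin ties Itgb4 to keratins, averaged 23.3 ± 3.18 RPKM in DM-aKG and 10.1 ± 0.382 RPKM in control (SD, n = 3 each; log2 fold change 1.16 ± 0.09; limma, adjusted p = 6.46e-05). Dst, which encodes another plakin, was named here after its values were seen. It averaged 3.03 ± 0.165 RPKM in DM-aKG and 1.70 ± 0.0854 RPKM in control (log2 fold change 0.68 ± 0.07, limma, adjusted p = 2.34e-04). The values do not separate the isoforms of Dst, so they do not show whether a hemidesmosomal form rose. The focal adhesion gene Zyx, a tension-sensing LIM protein, rose by 0.85 ± 0.05 on the log2 scale and Pdlim7 by 0.82 ± 0.07, while the tensin gene Tns3 fell by 1.06 ± 0.08. The other 5 that fell were Ilk, Parva and Lims1, subunits of the same complex at integrin tails, its partner Rsu1, and the adaptor gene Nedd9, with log2 fold changes of -0.19 to -0.68. Among α chains outside the set and integrin regulators, 7 of 9 tested genes rose (77.8%) and 0 fell, with a median of 0.32; besides Itgav these included Slc3a2, the heavy chain of amino acid transporters that also binds β integrin tails (1.22 ± 0.08), the integrin inhibitor gene Sharpin (0.36 ± 0.04) and Tln2 (0.56 ± 0.10).

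Of 19 tested genes for other matrix proteins and their receptors, 13 rose (68.4%), 5 fell (26.3%) and 1 missed the threshold, with a median log2 fold change of 0.47. Of the 19, Ecm1, Npnt and Ntn4 averaged under 1 RPKM in a group and entered the test through the group where they were high. The genes with the smallest p were Matn2 (log2 fold change 1.14 ± 0.09), Sdc1, which encodes the epithelial syndecan (0.90 ± 0.08), Dag1, the laminin receptor dystroglycan (-0.38 ± 0.04), and Ecm1, which averaged 4.18 RPKM in DM-aKG and 0.893 RPKM in control. Chosen after their values were seen, Nid1, a nidogen that bridges laminin and type IV collagen, stood at 1.34, 1.59 and 1.6 RPKM in DM-aKG against 0.12, 0.12 and 0.15 RPKM in control, and averaged under 1 RPKM. Hspg2, which encodes perlecan, averaged 3.44 ± 0.807 RPKM in DM-aKG and 1.31 ± 0.178 RPKM in control (SD, n = 3 each; limma, adjusted p = 8.27e-04), and Agrn, which encodes agrin, 24.8 ± 2.91 RPKM in DM-aKG and 17.6 ± 0.831 RPKM in control (limma, adjusted p = 0.00219). Also chosen after their values were seen, Ntn4, a laminin-related netrin, averaged 0.847 RPKM in DM-aKG and 2.06 RPKM in control, and the secreted protein gene Smoc2 had a log2 fold change of -1.01 ± 0.12. Fn1, the fibronectin gene, did not exceed 0.03 RPKM.

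**Figure D5:**
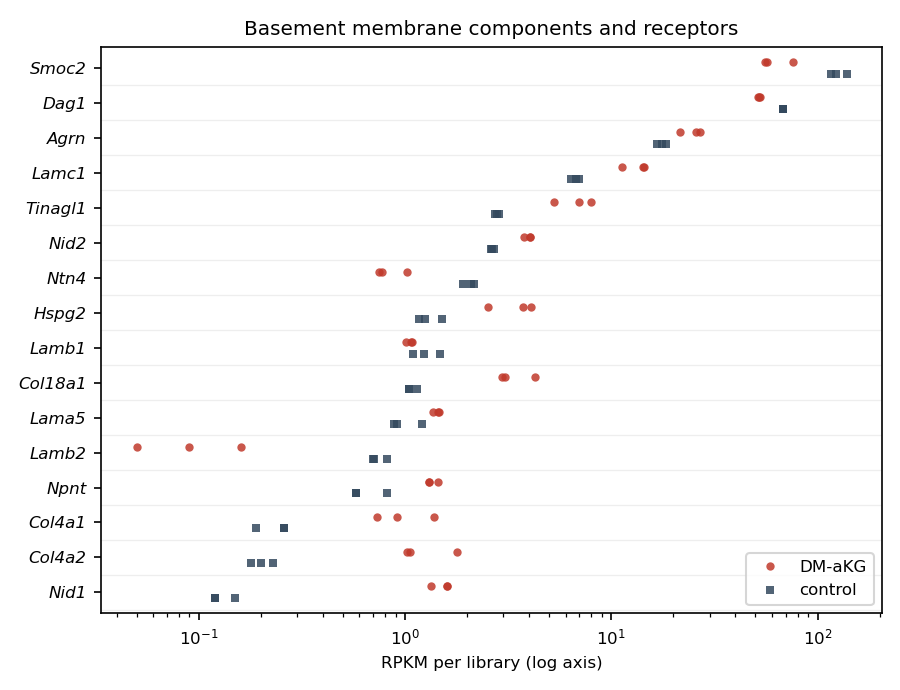
RPKM in each library (log axis) of laminin and collagen genes of the set and of other basement membrane components and receptors, chosen after their values were seen; DM-aKG as circles above, control as squares below. Nid1, Col4a2, Col4a1, Col18a1 and Hspg2 lie right of their controls in all 3 DM-aKG libraries, and Lamb2, Ntn4, Dag1 and Smoc2 left of them.

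Of 16 tested genes of collagen synthesis and processing, 3 rose (18.8%), 4 fell (25%) and 9 missed the threshold, and their median log2 fold change was -0.06. P4hb, the β subunit of the prolyl hydroxylases and a general protein disulphide isomerase, was at 430, 449 and 446 RPKM in DM-aKG and 614, 599 and 601 RPKM in control (log2 fold change -0.45 ± 0.04; limma, adjusted p = 1.34e-04). The prolyl isomerase gene Ppib fell by 0.48 ± 0.04 and the lysyl hydroxylase gene Plod1 by 0.58 ± 0.09 on the log2 scale, and Sec23a, a coat protein of the vesicles that carry collagen, rose by 0.33 ± 0.05. The collagen chaperone gene Serpinh1 did not exceed 0.05 RPKM, and Lox was at 0 throughout. P4ha1, a catalytic subunit of the prolyl hydroxylases, was chosen after its values were seen. It was at 14.1, 22.9 and 22.6 RPKM in DM-aKG and 12.01, 15.8 and 11.8 RPKM in control. Its groups overlapped (log2 fold change 0.55 ± 0.19, limma, adjusted p = 0.0402), and without a minimum it missed the threshold (limma, adjusted p = 0.0897). P4ha2, the other tested catalytic subunit gene, did not pass (log2 fold change -0.08 ± 0.15, limma, adjusted p = 0.663). The lysyl hydroxylase genes Plod2 and Plod3 did not pass either (limma, adjusted p = 0.578 and 0.263).

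Of 22 tested genes for other proteases at the cell surface and their inhibitors, 10 rose (45.5%), 5 fell (22.7%) and 7 missed the threshold, with a median log2 fold change of 0.18. Adam8, a membrane protease of the disintegrin family, was at 3.03, 3.91 and 3.54 RPKM in DM-aKG and 0.27, 0.25 and 0.17 RPKM in control, and so entered the test through its DM-aKG values alone. Plaur, the receptor that holds the plasminogen activator urokinase on the cell surface, was at 11.6, 18.7 and 19.9 RPKM in DM-aKG and 2.95, 2.44 and 2.65 RPKM in control, with DM-aKG replicate 1 lowest of its group (log2 fold change 2.40 ± 0.18; limma, adjusted p = 5.36e-05). Serpinb5, which encodes maspin, rose by 1.95 ± 0.12 on the log2 scale, and the cysteine protease inhibitor gene Cst3 fell by 0.66 ± 0.05.

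DM-aKG replicate 1 often lay at the edge of its group. Among the 15 genes of the set that rose, it was the lowest of the 3 DM-aKG libraries in 10 and the highest in 4. Over all 3354 genes called higher it was the lowest in 60.7%. The same library held the most RNA of Paneth cell markers in its group, as given above, and the part of that in these values was not tested. Without it, 16 genes of the set were called higher and 3 lower, and leaving out control replicate 2 with it gave the same counts.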

How the data were processed

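RNA was measured in 6 libraries, 3 treated with DM-aKG and 3 controls. The authors deposited RPKM for 24956 genes named by symbol, with 2 decimals. The tools CASAVA 1.8, HISAT2 2.0.4 and Partek and the build mm10 are named per the submitters' processing notes, with no role for each; the annotation, the strand setting and the handling of multiply mapped reads were not stated. A change in very abundant genes moves every RPKM of that library. Groups were taken from the titles and source names.

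Values were analysed as log2(RPKM + 0.5) for the 10852 genes with a mean of at least 1 RPKM, with limma 3.58.1 in R 4.3.3 (two-sided, eBayes, variance trend on the mean) and Benjamini-Hochberg adjustment over all of them, without the replicate number. Fold changes on this scale understate those of low genes. Ratios within a library were compared by exact permutation tests in scipy 1.17.1. The value of 1 read in the shortest miRNA and snoRNA genes (150 bases or less) gave the depth; 88.2% to 97.1% of 34 to 40 further low values per library came out whole within 0.05 reads. Positions and exon overlaps come from GENCODE (GRCm38), promoters from RefSeq (GRCm38.p6).

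The genes of the set, the lists and the tests were chosen with earlier results of these data known. Named were the 10 largest rises and 10 largest falls among called genes of the set, a fixed set of integrin, laminin, collagen and Timp genes with Cd44 and the tested MMPs, low genes that reached 1 RPKM in a library, and up to 4 genes with the smallest p per list; others, the low genes called without a minimum among them, were chosen after their values were seen. The counts cover every gene of the set, but a gene of it is not reported here by name or drawn. The procedure was tested on simulated data.

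Alternatives were the pseudocount, the minimum, the scaling, the variance model, the replicate number as a block, the omission of each library and of control replicate 2 with DM-aKG replicate 1, and the promoter window.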

Additional observations from a re-analysis of the deposited data

How the results depend on the processing

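Of 385 combinations of a tested gene and an alternative setting, 375 kept their call and direction, and the 10 that did not concern Itga7, Itgb3bp and Lama5. Itgb3bp became lower with median centring (log2 fold change -0.43; limma, adjusted p = 0.0344), with the replicate block (-0.38; limma, adjusted p = 0.0257) and without DM-aKG replicate 1 (-0.55; limma, adjusted p = 0.00133), and Itga7 became higher without that library; Lama5 is given in the report. The count of higher genes of the set, 15, became 25 with no minimum, where 89 were tested, and was 14 to 16 without any single library. The count of lower ones, 2, became 7 with no minimum and 1 with a minimum of 3 RPKM, and was 2 to 3 without any single library. With no minimum, 18343 genes were tested over the whole table, of which 3783 were higher and 2832 lower (36.1% together). The median log2 fold change of the set, 0.37, was 0.44 with a pseudocount of 0.1 and 0.28 with 1, 0.53 with a minimum of 0.5 RPKM, 0.42 with 3 RPKM, 0.02 with none, 0.31 to 0.44 without any single library and 0.42 without control replicate 2 and DM-aKG replicate 1. A minimum of 0.5 RPKM tested 27 genes of the set and one of 3 RPKM 17, so these counts and medians cover other genes. A larger pseudocount by its arithmetic shrinks fold changes, most of all those of low genes. The cause of the remaining shifts was not tested.

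Same-numbered libraries of the groups did not deviate together (r = -0.0832, -0.114 and 0.0110 across genes), so the numbers were not taken as pairs. With the replicate block 5748 genes were called, against 6033 without it, and in the set 15 were higher and 3 lower. Over all genes tested, the lowest and highest counts of calls without a single library were 4748 and 6862. Windows that also took in the 50 bases after the start held TGANTCA in 12.5%, GGAATG in 11.2% and CTTTGAT in 1.25% of the genes of the set. Depth and the rounding to 2 decimals limit the precision of values under 0.1 RPKM.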
